A study of Mus musculus with 6 samples.

Results

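The interval studied here is the large olfactory receptor gene cluster of mouse chromosome 2, taken as positions 85300001 to 89900000 of genome build mm9 (4.6 Mb). It was chosen by position, as sequence that should be silent in muscle cells, with earlier results of these data known. It comprised 460 windows of 10 kb, of which 455 held reads, out of 250807 windows with reads on chromosomes 1 to 19 and X. Ubiquitylated histone H2B (H2Bub) was measured in it by chromatin immunoprecipitation and sequencing in C2C12 cells, an established line of mouse muscle precursors whose cells fuse into multinucleated myotubes once serum is lowered. The myoblast group (MB) was 3 libraries from cells kept in 10% fetal bovine serum and collected while growing, at about 40% confluency. The myotube group (MT) was 3 libraries from confluent cells switched to 2% horse serum for 4 days (96 h), with fresh medium at day 2. Both groups were the same cell line, and its chromatin was cut with micrococcal nuclease to about 85% mononucleosomes before precipitation with the same H2Bub antibody clone. The labels write C2C12 for the cell type and C1C12 for the source, and no source used here gives the share of nuclei in fused cells. Antibody lot numbers differ for each of the 6 libraries and run consecutively, and whether separate lots were used cannot be told from the labels. They number the libraries but do not say that these came from separate cultures, so each p-value measures the spread between these libraries, which may be technical. Reads on chromosomes 1 to 19 and X numbered 8759266 to 15891204 per library. The share of them in 10 kb windows with a peak was 51.5% to 59.6% in myoblasts and 21.2% to 25.5% in myotubes.

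Olfactory receptors are G protein-coupled receptors that bind odorants on sensory neurons of the nose, and their genes form the largest gene family of the mouse. They stand in long tandem arrays of small, intron-poor coding genes and pseudogenes, and each sensory neuron uses a single receptor gene while the others stay packed in heterochromatin; muscle cells have no known use for nearly all of them. H2Bub is placed on nucleosomes as RNA polymerase II elongates and so is known chiefly as a mark of transcribed gene bodies, which makes an unused receptor array a natural low reference for it.

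In the gene order of RefSeq on build GRCm38.p6, the receptor run of this part of chromosome 2 lay between Lrrc55, a leucine-rich repeat protein that modulates potassium channels, and Ptprj, a receptor-type protein tyrosine phosphatase. It held 293 Olfr entries, 222 of them protein-coding and 71 pseudogenes, of 377 Olfr entries on the chromosome. The only other protein-coding genes inside it were Fads2b, a relative of the fatty acid desaturases, and Pramel6 and Pramel7, members of the Prame family. The files are on mm9, so the order was used for names only and no gene was placed at a position of the interval; which genes lie just inside or outside its ends was not determined.

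The promoters of the receptor genes were poor in G, C and CG dinucleotides beside those of the genes around the run. Over the 250 bases before the annotated start, the 186 coding Olfr genes with an entry had a median G+C content of 30.8% (range 15.2% to 46.8%). The 20 coding genes with an entry on each side of the run had a median of 57.8% (37.6% to 79.6%), and the median over all 27025 genes listed was 52.0%. A CG dinucleotide was missing from 86 of the 186 Olfr promoters (46.2%), from 0 of the 40 neighbours and from 8.26% of all promoters. The letters TAATTA, a core that homeodomain proteins bind and that reads the same on both strands, were in 24.2% of the Olfr promoters, 2.5% of the neighbours' and 4.9% of all; sequence rich in A and T holds such letters more often. A match is a description of letters and not of binding, and RefSeq starts of receptor genes can be coding starts. The Olfr stretches called promoters here, those printed below among them, may therefore be other sequence before a coding start. To show what lies on either side of the border, the first and last coding Olfr genes of the run with an entry, and the neighbour at each end, are given 5′ to 3′ on the gene's own strand (RefSeq, GRCm38.p6, chromosome 2; plus strand for Olfr1274 and minus strand for the others), with CG in capitals.
Lrrc55: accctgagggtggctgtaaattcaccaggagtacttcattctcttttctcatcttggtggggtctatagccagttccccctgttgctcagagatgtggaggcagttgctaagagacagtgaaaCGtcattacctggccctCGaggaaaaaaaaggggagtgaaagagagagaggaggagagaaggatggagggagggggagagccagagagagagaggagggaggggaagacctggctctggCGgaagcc
Olfr988: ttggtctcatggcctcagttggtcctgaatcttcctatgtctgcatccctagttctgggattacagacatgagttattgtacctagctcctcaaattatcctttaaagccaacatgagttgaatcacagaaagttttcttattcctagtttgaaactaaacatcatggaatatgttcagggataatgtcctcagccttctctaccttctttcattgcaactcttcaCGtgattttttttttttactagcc
Olfr1274: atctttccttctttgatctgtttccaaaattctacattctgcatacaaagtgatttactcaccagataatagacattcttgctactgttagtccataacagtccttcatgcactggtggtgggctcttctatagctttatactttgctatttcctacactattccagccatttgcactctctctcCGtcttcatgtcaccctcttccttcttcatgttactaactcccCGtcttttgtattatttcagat
Ptprj: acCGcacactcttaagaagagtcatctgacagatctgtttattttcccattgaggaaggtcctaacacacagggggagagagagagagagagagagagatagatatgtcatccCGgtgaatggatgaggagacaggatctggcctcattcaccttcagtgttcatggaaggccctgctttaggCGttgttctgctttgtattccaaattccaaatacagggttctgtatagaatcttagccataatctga
The 2 receptor stretches held 1 and 2 CG and 38.4% and 38.8% G+C, and the 2 neighbours 3 CG each and 54.0% and 44.8%, so these border genes differed less than the medians did.

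The interval carried almost no H2Bub peaks in either cell state. The authors' MB list had 0 peaks in its 4.6 Mb and the MT list had 1. The 2 Mb on the left held 198 MB and 10 MT peaks, and the 2 Mb on the right 568 and 44. Over chromosome 2 as a whole the lists had 93.3 and 11.6 peaks per Mb, and over chromosomes 1 to 19 and X 72.5 and 9.76, against 0 and 0.217 in the interval. There is 1 list per group and no source used here gives its threshold, so these counts have no replicate error.

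The stretch without MB peaks was longer than the interval itself. It ran from 84910073 to 90312235 (5.40 Mb), from 390 kb before the interval to 412 kb after it, and was the longest but for 1 on chromosome 2 and 27th of the 191304 stretches between MB peaks on chromosomes 1 to 19 and X. The longest of all, on chromosome X, was 16.0 Mb. The MT list left 4.16 Mb free, from 85102503 to 89259936, which ranked 26th of 25723.

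The only peak inside rested on few reads. It lay at chr2:89259937-89260255 (319 bp, MT list). The myoblast libraries had 2, 1 and 1 reads there and the myotube libraries 3, 4 and 5, which is 0.125 ± 0.0803 against 0.374 ± 0.0513 reads per 1000000 reads (RPM; mean ± SD of 3 libraries; two-sided exact permutation p = 0.1). Each myotube library was above each myoblast library, but 3 libraries against 3 cannot give a p below 0.1, and the peak was called on these same libraries. Per base, reads in it were 5.68 times as dense as in the 50 kb on each side in myotubes (12 reads) and 2.92 times in myoblasts (4 reads).

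**Figure D1:**
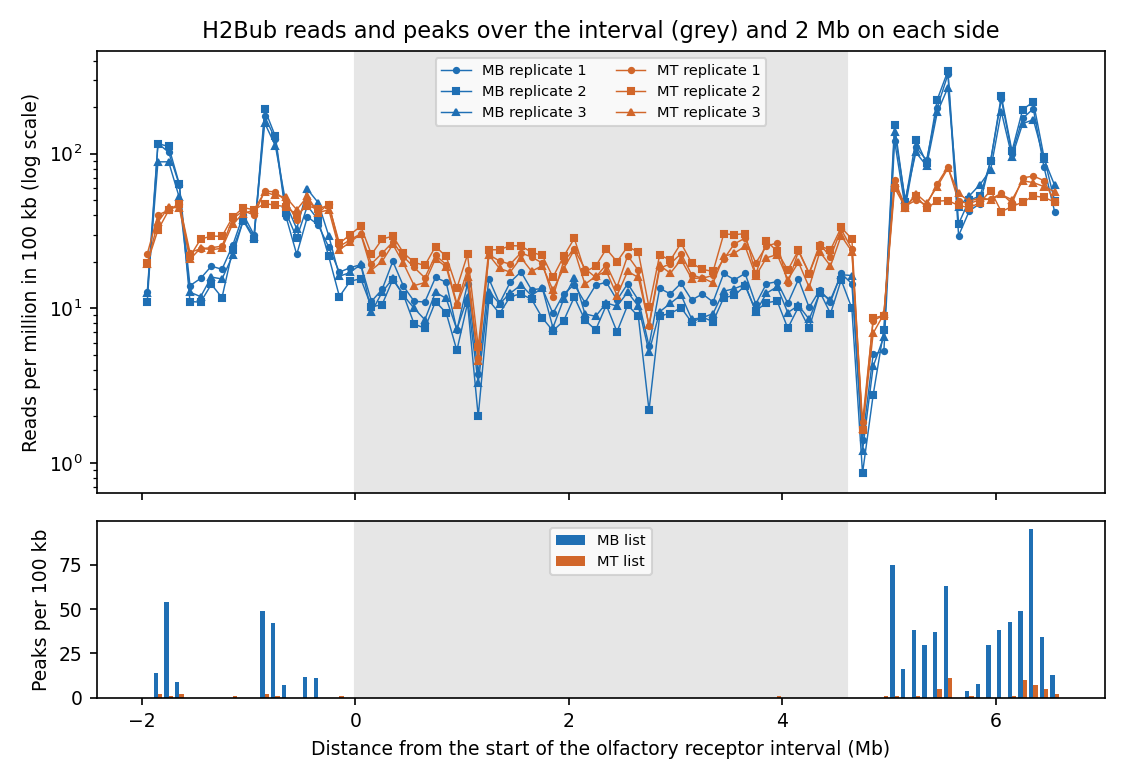
The upper panel plots RPM in consecutive 100 kb bins (log axis) for each of the 6 libraries against distance from the start of the interval, which is shaded, with 2 Mb on each side; the lower panel gives peaks of each list per bin. Inside the shaded interval every myotube library lay above every myoblast library in all 46 bins and the peak panel is nearly empty, whereas in 19 of the 26 flank bins that hold a peak the myoblast mean was the higher one.

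Only a small share of all reads fell in the interval. The myoblast libraries placed 5571, 4719 and 8204 reads there, 0.0600%, 0.0450% and 0.0516% of their reads. The myotube libraries placed 8016, 9553 and 12086, or 0.0915%, 0.103% and 0.0835%. Per Mb of windows with reads this was 132, 98.9 and 113 RPM in myoblasts and 201, 227 and 184 RPM in myotubes, or 115 ± 16.5 against 204 ± 21.9 (SD, n = 3), a ratio of 1.78. The lowest myotube library was well above the highest myoblast library (exact permutation test, two-sided, p = 0.1, the smallest these 6 libraries allow).

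Sequence without peaks elsewhere on the chromosome moved the same way. The 13554 peak-free windows of chromosome 2 outside the interval had 238 ± 22.4 RPM per Mb in myoblasts and 397 ± 10.2 in myotubes, a ratio of 1.67. The share of reads in windows with peaks fell from 55.0% ± 4.19 to 24.0% ± 2.42 (SD, n = 3) between the groups, and the shares inside and outside such windows sum to a fixed total in each library. Relative to those peak-free windows, the interval stood at 0.547, 0.462 and 0.439 in the myoblast libraries and at 0.517, 0.556 and 0.467 in the myotube libraries. The ranges overlapped, and the means of 0.483 ± 0.0566 and 0.514 ± 0.0448 differed by less than the spread between libraries (exact permutation test, two-sided, n = 3, p = 0.5). The interval thus had less read density than the mean of other peak-free sequence of its chromosome in each of the 6 libraries, in both cell states. Such a level was not particular to it, as 100 kb flank bins without a peak differed widely. The bin from 83300001 was at 0.509 of the chromosome's peak-free density in myoblasts and 0.518 in myotubes. That from 84200001 was at 1.61 and 1.08. Against the peak-free windows of chromosomes 1 to 19 and X the values were 0.531 ± 0.0563 and 0.559 ± 0.0439.

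**Figure D2:**
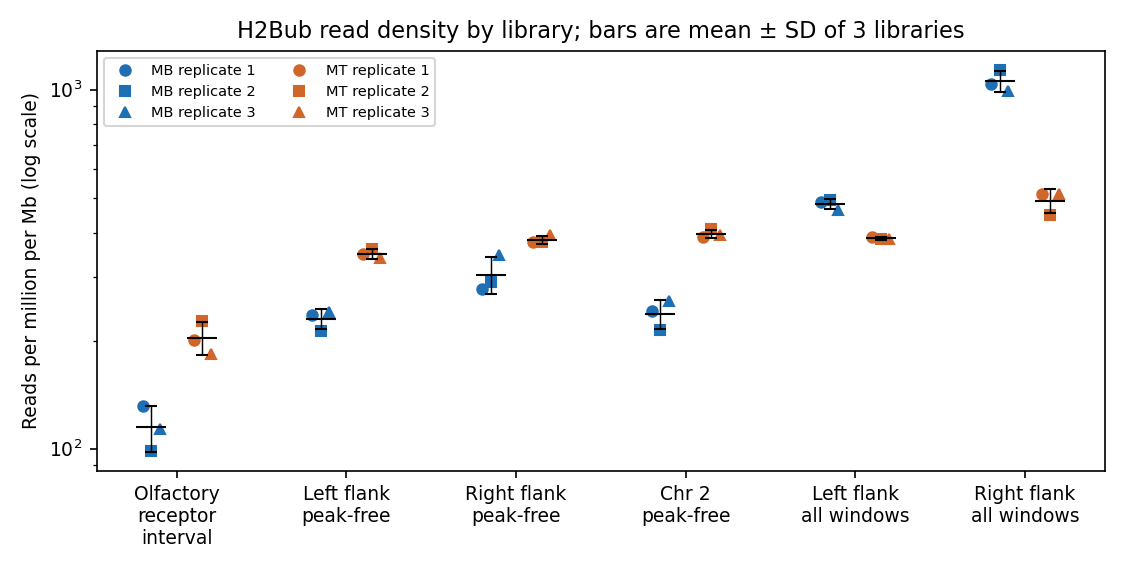
Points give each library's RPM per Mb (log axis) in the interval, in the peak-free windows of each flank and of chromosome 2, and in all windows of each flank; horizontal bars are the mean and whiskers the SD of 3 libraries. The interval is the lowest set in each group, at 115 in myoblasts and 204 in myotubes, and the order of the groups turns around where windows with peaks are included.

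The neighbouring 2 Mb on each side showed a steep relief in myoblasts and a shallow one in myotubes. Over all windows the left flank went from 480 ± 15.5 to 385 ± 3.86 RPM per Mb and the right flank from 1055 ± 72.6 to 491 ± 37.1 (SD, n = 3). Both flanks together were at 761 ± 42.6 and 437 ± 19.5. The interval was at 0.175, 0.123 and 0.157 times the density of its flanks in the myoblast libraries and at 0.447, 0.548 and 0.411 times in the myotube libraries, and these ranges were far apart (means 0.152 ± 0.0264 and 0.469 ± 0.0710; exact permutation test, two-sided, n = 3, p = 0.1). Averaged over 2 Mb, the interval was below its flanks in every library. At the borders themselves it was not: the first 100 kb inside held more reads than the last 100 kb before it in each library (means of 18.0 and 16.8 RPM in myoblasts, 31.5 and 28.2 in myotubes), and the last 100 kb inside held more than the first 100 kb after it (16.2 and 13.6, 31.8 and 25.2).

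Restricting the flanks to windows without a peak reduced the difference. The 158 such windows on the left had 230 ± 14.5 and 349 ± 10.2 RPM per Mb, and the 89 on the right 305 ± 35.7 and 381 ± 10.2. Relative to both sets together the interval was at 0.524, 0.410 and 0.408 in myoblasts and 0.562, 0.622 and 0.512 in myotubes. MB replicate 1 lay above MT replicate 3, so the groups overlapped (0.448 ± 0.0664 against 0.565 ± 0.0550; exact permutation test, two-sided, n = 3, p = 0.2). The peak-free windows on the right flank, many of them next to peaks, were at 1.28 ± 0.110 times the chromosome's peak-free density in myoblasts and 0.962 ± 0.0401 times in myotubes, whereas those on the left were at 0.967 ± 0.0345 and 0.879 ± 0.0157. With windows at least 10 kb from any peak as reference the interval was at 0.506 and 0.598 of its flanks.

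Window by window, the interval followed the rest of the peak-free genome. With scaling by all reads, 260 of its 341 tested windows were higher in myotubes and 0 lower (limma voom with Benjamini-Hochberg adjustment over 233813 windows, adjusted p under 0.05; limma-trend gave 245 and 0; 265 windows had an unadjusted p under 0.05). Among all windows tested 70.9% were higher and 13.1% lower, and among windows without a peak outside the interval 82.8% and 0.955%. The median log2 fold change was 0.83 in the interval and 0.84 in those windows. The floor on low counts removed 119 of the 460 windows, and 181 of the 341 that passed had fewer than 3 myoblast libraries above it, so the count is no support for a rise. Without the floor 294 of 455 were higher and 0 lower, where 67.5% of all windows were higher and 12.2% lower, and 77.8% and 0.902% of other peak-free windows.

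Scaled by the peak-free windows of chromosome 2, nearly all of these calls were gone. Then 3 of the 341 windows were higher and 1 lower, against 1.71% higher and 19.2% lower over all windows tested and 1.93% and 5.72% over other peak-free windows (limma voom, adjusted p under 0.05; 17 of the 341 had an unadjusted p under 0.05). The median log2 fold change was 0.10 in the interval and 0.11 in other peak-free windows, from which this scaling takes those of chromosome 2. Without the floor 2 of 455 windows were higher and 3 lower, against 1.48% and 17.9% over all windows and 1.64% and 5.27% over other peak-free windows. In the flanks the same scaling called 43 of 179 windows lower on the left and 117 of 174 on the right, with 1 higher on each side.

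**Figure D3:**
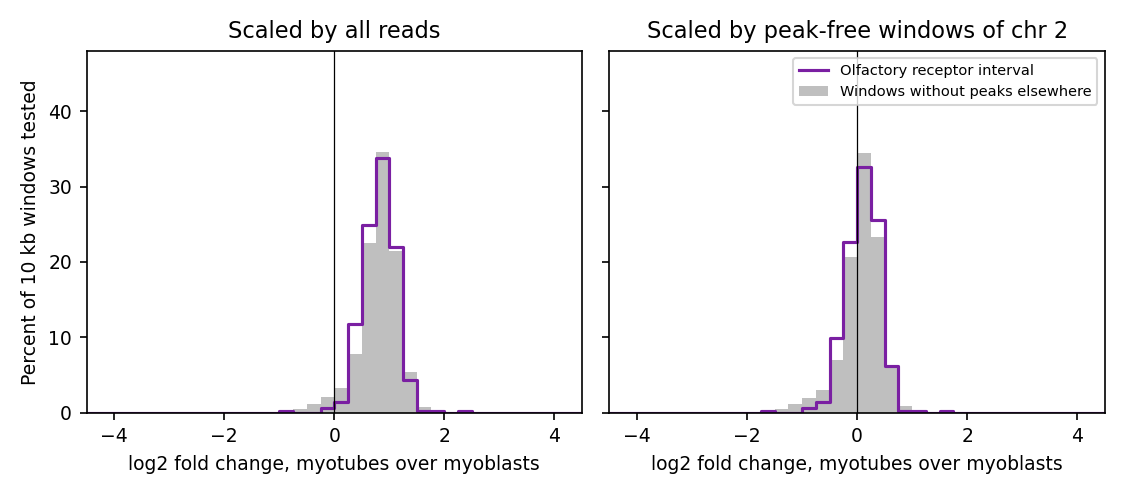
Histograms of the log2 fold change (myotubes over myoblasts) of tested 10 kb windows, as a percentage of windows, for the interval (purple line, 341 windows) and for windows without peaks elsewhere (grey bars, 191361 windows), with scaling by all reads on the left and by peak-free windows of chromosome 2 on the right. The bulk of the purple outline lies over the grey bars in both panels, with medians of 0.83 on the left and 0.10 on the right.

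The largest fold changes among the better covered windows lay near the right end. Of the called windows that averaged 20 reads or more per library, adjacent windows counted once, the 3 with the highest fold changes lay in the last part of the interval. They were at chr2:89700001-89710000, chr2:89130001-89140000 and chr2:89200001-89210000. The first had 13, 8 and 24 reads in myoblasts and 26, 35 and 46 in myotubes (1.22 ± 0.404 against 3.31 ± 0.425 RPM, SD, n = 3), a log2 fold change of 1.41 with an SE of 0.29 (limma, adjusted p = 9.768e-05). The other two had log2 fold changes of 1.40 and 1.32. With peak-free scaling their values were 0.67, 0.71 and 0.61, and only the window at 89130001 was called (limma adjusted p = 0.02824).

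At the other end of that list no window was lower in myotubes. Adjacent windows counted once, the 3 smallest called differences were at chr2:85370001-85380000 (log2 fold change 0.53), chr2:89230001-89240000 (0.54) and chr2:87910001-87920000 (0.56). With peak-free scaling they turned to -0.22, -0.18 and -0.16 and were not called. With all reads limma-trend called none of the 3 (adjusted p = 0.0627, 0.05495 and 0.05464). Each also lost its call in most fits with 1 library left out. The first of these had 26, 22 and 48 reads in myoblasts and 21, 43 and 67 in myotubes, and in RPM MT replicate 1 (2.40) lay below MB replicates 1 (2.80) and 3 (3.02), so the groups overlapped.

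The other 3 calls under peak-free scaling are named because they are so few, after their values were seen. The window at chr2:88000001-88010000 had 6, 0 and 9 reads in myoblasts and 14, 14 and 16 in myotubes (log2 fold change 1.62 with an SE of 0.49, limma adjusted p = 0.00921). That at chr2:85450001-85460000 had 1, 8 and 9 against 14, 20 and 18 (1.14, SE 0.42, limma adjusted p = 0.04151). The single lower one, chr2:86390001-86400000, had 13, 13 and 17 against 15, 8 and 4 (-1.54, SE 0.39, limma adjusted p = 0.001615), and MT replicate 1 was not low there. None of the 3 held a peak. At 88000001 and 85450001 no myoblast library reached the floor of 1.011 RPM. These windows passed it through the myotube libraries alone, so their calls are no support for a rise. Leaving out each library in turn with this scaling gave 1 to 6 higher and 0 to 3 lower windows in the interval. Over all windows those fits called 0.709% to 2.09% higher and 17.2% to 19.1% lower.

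Fitted as a single region, the interval had a log2 fold change of 0.79 (SE 0.13) with scaling by all reads and of 0.08 (SE 0.12) with peak-free scaling. It was 1 of 511 tiles of 4.6 Mb (limma voom, Benjamini-Hochberg over the tiles), with adjusted p = 0.0007021 in the first case and 0.5136 in the second. Over all tiles 47.2% were called higher and 30.9% lower with all reads, and 0% and 82.8% with peak-free scaling, since most tiles hold peaks and fell against that reference. The replicate number as a block gave 0.81 and 0.09.

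The interval was among the emptiest of the 511 tiles. Tiles of chromosome 2 were placed so that the interval filled 1 of them. Those of other chromosomes ran from the first base and could split an empty stretch. Tiles with reads in fewer than 90% of their windows were left out. The ranks among tiles may thus favour the interval, and 21 stretches without MB peaks on autosomes were longer than its own. In myoblasts the interval's 115 RPM per Mb was the lowest of the 482 autosomal tiles, whose median was 408. Only 1 tile, on chromosome X, was lower (104). In myotubes its 204 RPM per Mb was below all but 5 of the autosomal tiles, with a median of 415. In all, 13 tiles held 0 MB peaks, the interval among them, and 3 of these were on chromosome X.

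Of the other tiles without MB peaks, the autosomal ones were denser and those of chromosome X were not clearly so. The 3 tiles of chromosome X had 104, 116 and 116 RPM per Mb in myoblasts and 190, 213 and 212 in myotubes, on both sides of the interval. The 9 other autosomal tiles with 0 MB peaks had 147 to 183 RPM per Mb in myoblasts and 266 to 333 in myotubes, and their ratios of myotubes to myoblasts, 1.72 to 1.91, bracketed the 1.78 of the interval. In each of the 6 libraries the interval lay below all 9: in MB replicate 2, for instance, it had 98.9 RPM per Mb where they had 125 to 157, and in MT replicate 2 it had 227 where they had 300.3 to 376. These tiles were picked by the MB list, so their level is a description. They include chr14:92000001-96600000 (147 and 277) and chr2:39300001-43900000 (162 and 297), the latter on the same chromosome as the receptors. No input library was analysed here, so none of these densities is corrected for copy number, on chromosome X or in the interval.

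**Figure D4:**
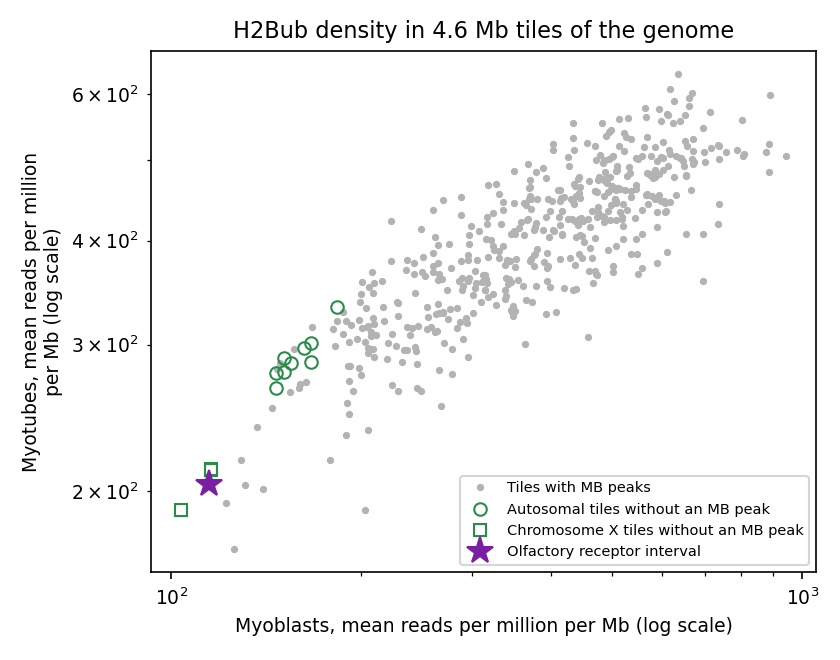
Each point is a 4.6 Mb tile of chromosomes 1 to 19 and X, with its mean RPM per Mb in myoblasts on the x axis and in myotubes on the y axis (both log axes). The star, the receptor interval at 115 and 204, lies at the lower left beside 3 tiles of chromosome X and below the 9 other autosomal tiles without an MB peak (open circles).

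Some of the sequence had no read in any library, in the interval and around it. Of the 4600 bins of 1 kb in the interval, 582 (12.7%) held no read in any of the 6 libraries, against 6.26% in the peak-free windows of chromosome 2 outside it and 6.96% to 10.8% in the 9 autosomal tiles. The peak-free windows beside it had more such bins, 13.9% in the left flank and 22.3% in the right. Near-identical receptor genes and repeats leave reads without a unique place, and no source used here gives the mapping filters. Counting only 1 kb bins with a read in any library, the interval was at 0.512 ± 0.0600 of the chromosome's peak-free density in myoblasts and 0.545 ± 0.0475 in myotubes (SD, n = 3), so the difference was about as large without the empty bins. Bins that held reads had a median of 11 over the 6 libraries, and 23 in the peak-free windows of the rest of the chromosome. Whether base composition or reads that map to several places contribute within such bins was not tested; no input library was analysed here.

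The longest gap without a read in any library was 40152 bp, from 89046193 to 89086344. The next were of 15884 bp (85970953 to 85986836), 11836 bp (88008837 to 88020672) and 11447 bp (89729516 to 89740962). In all 5 of the 460 windows were without any read, and the right flank had 13 such windows of 200.

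Along the interval, density was uneven in a way that all libraries shared. In 100 kb bins it ran from 3.01 to 18.0 RPM in myoblasts (median 11.9) and from 4.99 to 31.8 in myotubes (median 20.2). All 46 bins were higher in myotubes with no overlap of the groups, where 71.3% of the genome's 100 kb bins were, and their ratios ran from 1.51 to 2.03. Scaled by peak-free windows of chromosome 2, the groups did not overlap in 3 of the 46, each higher in myotubes, where 19.8% of the genome's bins were higher and 30.7% lower in that way.

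The bins at both ends were among the densest, and the emptiest ones lay within. The first bin, from 85300001, had 19.2, 15.5 and 19.3 RPM in myoblasts and 30.4, 34.0 and 30.3 in myotubes, and the last, from 89800001, had 16.8, 15.2 and 16.5 against 32.4, 33.3 and 29.5. They ranked 1st and 3rd of 46 in myoblasts and 2nd and 1st in myotubes, at 0.755 and 0.682 of the chromosome's peak-free density in myoblasts and 0.794 and 0.800 in myotubes. The emptiest bin, from 86400001, had 3.77, 2.00 and 3.27 against 4.79, 5.63 and 4.56 RPM, 0.125 and 0.126 of that density. The bin from 88000001, with 5.71, 2.19 and 5.22 against 7.65, 10.2 and 7.81, was next. Both were the lowest pair in each group. The interval did not hold the emptiest bin of the neighbourhood, which was the one from 90000001 in the right flank, with 1.15 ± 0.274 and 1.70 ± 0.109 RPM (SD, n = 3).

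Single windows with many reads were near the left end. The 3 densest tested windows, adjacent windows counted once, were at chr2:85360001-85370000, chr2:85330001-85340000 and chr2:85680001-85690000, all within 400 kb of the left end. The first had 29, 23 and 43 reads in myoblasts and 37, 48 and 66 in myotubes (2.67 ± 0.466 and 4.66 ± 0.492 RPM; SD, n = 3), still far from the 53.5 ± 9.52 RPM of a window with 12 MB peaks at chr2:83490001-83500000 in the left flank. That flank window fell to 6.64 ± 2.23 RPM in myotubes (log2 fold change -3.09 with an SE of 0.32, limma adjusted p = 1.384e-09). The densest window of the interval had 4.66 RPM in myotubes. In the right flank the window at chr2:91370001-91380000 went from 85.0 ± 12.4 to 6.79 ± 1.81 RPM (log2 fold change -3.67). Under the same limit of 20 reads, the called flank windows with the highest fold changes, chr2:83860001-83870000 on the left (log2 fold change 1.38) and chr2:89940001-89950000 on the right (1.26), held no peaks. Adjacent windows counted once, the 3 sparsest tested windows of the interval were at chr2:86180001-86190000, chr2:88000001-88010000 and chr2:87070001-87080000. Their mean levels over the 6 libraries were 0.884, 0.905 and 0.946 RPM.

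Read numbers per 10 kb window varied more than counting error alone gives. The median window had 10 to 18 reads in the myoblast libraries and 18 to 26 in the myotube libraries, and the highest 28 to 67. The coefficient of variation over the 455 windows was 0.504 to 0.551 by library, where counting alone would give 0.194 to 0.311. In peak-free windows of the chromosome outside the interval it was 0.525 to 0.610 in myoblasts and 0.403 to 0.424 in myotubes. Across the 455 windows, log2 RPM correlated at 0.734 to 0.840 between libraries of a group and at 0.767 to 0.821 between libraries of different groups; the points share mappable length and base composition, so this is a description only. The order of the windows was thus about as alike between cell states as between libraries of the same state.

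Reads of opposite strands in the interval had a preferred spacing. Pairs of a plus-strand and a minus-strand read 70 to 140 bp apart were more frequent, per bp of distance, than pairs 400 to 700 bp apart. The ratio was 1.42, 1.38 and 1.62 in the myoblast libraries and 1.41, 1.52 and 1.45 in the myotube libraries (means 1.47 ± 0.126 and 1.46 ± 0.0525; exact permutation test, two-sided, n = 3, p = 0.9). The peak-free windows of the chromosome had 1.41 ± 0.0322 and 1.38 ± 0.0101. Closer pairs were in excess too: around 7 bp apart the interval was at 1.35 in myoblasts and 1.26 in myotubes. Whether the spacing came from cut mononucleosomes was not tested. With 167 to 1150 pairs per library at the near distance, no difference between groups was detectable in the interval, and plus-strand reads made up 49.1% to 51.1% of its reads.

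**Figure D5:**
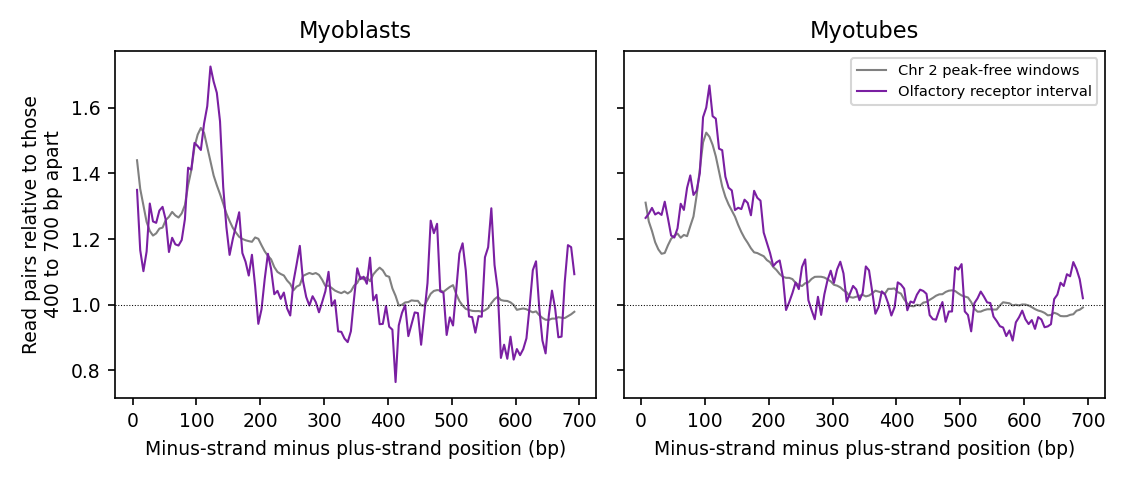
Number of plus-to-minus read pairs by distance (15 bp running mean, relative to the mean at 400 to 700 bp, shown by the dotted line at 1), averaged over 3 libraries, for the interval (purple) and the peak-free windows of chromosome 2 (grey), in myoblasts on the left and myotubes on the right. By library the maximum lay at 89 to 128 bp in the interval and at 100 to 113 bp in the other windows, and the purple curve, with fewer pairs, is the rougher one.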

How the data were processed

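Deposited by the authors were, for each library, the position and strand of each mapped read, and 1 list of peak boundaries per group, all on mm9 per the submitters' processing notes. Aligner, read length, mapping filters, peak caller and threshold: not given in the sources used here. The deposited files hold 0 repeated lines, so a position and strand counts once per library. Positions were counted here in windows of 10 kb with Python 3.11.15, NumPy 2.4.6 and pandas 2.3.3, and drawn with matplotlib 3.10.9; peak-free windows hold reads and no MB or MT peak. Scaling was by reads on chromosomes 1 to 19 and X, or by peak-free windows of chromosome 2 outside the interval. Windows reaching 10 reads (scaled to the median library) in 3 libraries, and 15 in all, were fitted with limma 3.58.1 (voom, two-sided, Benjamini-Hochberg over all windows, threshold 0.05) in R 4.3.3. On simulated counts for 233813 windows it recovered 29 of 100 changes of 2-fold and 93 of 100 of 4-fold, with 4 false calls. No other windows were changed there, whereas 70.9% of windows were called higher in the data with scaling by all reads. The recovered shares thus do not give the power of the fits to the data. Densities, 1 value a library, were tested by exact permutation (two-sided). Named windows were the 3 highest and 3 lowest fold changes among those called with a mean of at least 20 reads, the 3 densest and 3 sparsest tested, and the highest and lowest called in each flank under the same limit of 20 reads, adjacent windows counted once. The interval and these choices were made with earlier results of these data known. Alternatives covered scaling, model, floor, window size, interval, read position, a replicate block and each library left out. No annotation of mm9 was used, so muscle genes were not looked up to check the cell type. Promoters came from RefSeq, GRCm38.p6.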

Additional observations from a re-analysis of the deposited data

How the results depend on the processing

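The scaling decided the calls. With peak-free windows of chromosome 2, or of chromosomes 1 to 19 and X, or the first with a replicate block, 3 windows of the interval were higher and 1 lower instead of 260 and 0, and the log2 fold change of the whole interval, 0.79, became 0.0846, 0.0698 and 0.0936 (limma adjusted p = 0.5136, 0.5569 and 0.3498). Without the floor, chosen after the data were seen, that scaling gave 2 higher and 3 lower. With all reads the replicate block gave 256 higher and 0 lower of 341. It called 71% of all windows higher, and 82.9% of peak-free windows outside the interval. Windows of 50 kb, fewer by construction, gave 92 higher of 92, where these shares were 75.6% and 96.9%. Leaving out each library gave 201 to 273 higher and 0 to 1 lower (1 without MT replicate 1 and 1 without MT replicate 2), and 0.71 to 0.91 for the whole interval. The higher windows were 55.2% to 75.1% of those tested in the interval. Over all windows these fits called 60.1% to 67.6% higher and 11.7% to 12.8% lower. With peak-free scaling, chosen after the data were seen, the log2 fold change was 0.19 without MB replicate 1, 0.0564 without MB replicate 2, -0.0301 without MB replicate 3, 0.0741 without MT replicate 1, 0.0298 without MT replicate 2 and 0.16 without MT replicate 3 (limma adjusted p 0.08066 to 0.8551); higher windows were then 6, 1, 1, 2, 1 and 4 in the same order, and lower ones 2, 1, 1, 3, 2 and 0. The density of the interval in myotubes minus myoblasts was 77.6 to 99.4 RPM per Mb with a library left out; relative to peak-free windows of chromosome 2 it was 0.00934 to 0.0630 (0.0310 with all libraries, and 0.00855 with windows at least 10 kb from a peak), to those of the flanks 0.0897 to 0.156, and to all flank windows 0.278 to 0.346. These differences kept their sign under each alternative tried, including 1 kb bins with a read only, which was chosen after the data were seen. The peak counts, 0 and 1, were the same for the upper 50% by width and for whole peaks. Of the 16 named windows, 5 changed sign with peak-free windows of chromosome 2, with those of chromosomes 1 to 19 and X, and with the block and the first scaling: 85370001 (-0.22, -0.24, -0.17), 89230001 (-0.18, -0.20, -0.19), 87910001 (-0.16, -0.17, -0.17), 85680001 (-0.36, -0.38, -0.37) and 86180001 (-0.15, -0.17, -0.17), and none of these values was called. Over the alternatives, 150 values of the 16 windows kept sign and call, and 40, in 9 windows, kept the sign but lost the call. Deviations of same-numbered libraries correlated at 0, -0.17 and 0.144 over the tested windows, and the libraries were not treated as paired. Depth limits what single windows can show: the median window of the interval had 10 to 26 reads per library.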
